A study of Drosophila melanogaster with 2 samples.

Results

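Small nucleolar RNA (snoRNA) genes and the genes that host them were examined in a genome-wide map of the tagged transcription factor tx in Drosophila melanogaster embryos. The annotation held 269 genes of the biotype snoRNA on the arms 2L, 2R, 3L, 3R, 4 and X, all of which were taken. A host was a gene on the same strand that wholly contained the snoRNA, and 247 of the 269 had one, which gave 92 distinct hosts. Hosts were drawn from 13945 protein-coding and 2996 noncoding RNA genes on these arms. The assay was chromatin immunoprecipitation with sequencing (ChIP-seq) with an antibody against green fluorescent protein (GFP), in a transgenic line that stably expresses tx with GFP at its C-terminus. Pooled male and female embryos were taken whole at 0 to 24 h and gave 2 biological replicates of 1 group. The cells that contribute to a signal cannot be separated in whole embryos. Separate cultures or crosses behind the replicates are not described in the labels. The line was the tx-GFP strain in both replicates, with no other allele or treatment in the labels. No immunoprecipitation from untagged flies was analysed here, so signal that does not depend on tx cannot be told apart from binding. The text files that accompany the lists name 1 control library, used for both replicates.

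snoRNAs guide chemical modification of other RNAs, mostly ribosomal RNA, inside the nucleolus. Box C/D snoRNAs direct 2′-O-methylation by Fibrillarin, whereas box H/ACA snoRNAs direct conversion of uridine to pseudouridine by the dyskerin homologue Nop60B. Most snoRNAs of flies have no promoter of their own: they lie in introns and are trimmed from the spliced-out intron of the host. Many hosts encode ribosomal proteins, and others (Uhg genes, for U snoRNA host gene) make spliced RNAs without a known protein product. tx (taxi, also called delilah) is a basic helix-loop-helix protein of a family that recognises E-boxes (CANNTG).

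The following snoRNAs are shown because each lay within 500 bp of a reproducible tx peak at the promoter of its host, and because they show both guide families. Capitals mark the C box (TGATGA, near the 5′ end) and D box (CTGA, near the 3′ end), or the ACA box near the 3′ end. Sequences were read from the Release 6 genome.
snoRNA:U49:66Da in RpL14 (dm6 chr3L:8601473-8601552, plus strand): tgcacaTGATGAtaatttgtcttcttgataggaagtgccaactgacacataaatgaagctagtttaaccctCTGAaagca
snoRNA:Me28S-A774b in RpS12 (dm6 chr3L:13023580-13023652, plus strand): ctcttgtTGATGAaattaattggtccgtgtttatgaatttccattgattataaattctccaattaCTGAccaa
snoRNA:Or-CD11a in RpL28 (dm6 chr3L:3222475-3222541, minus strand): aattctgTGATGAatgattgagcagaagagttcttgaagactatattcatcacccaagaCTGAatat
snoRNA:Psi18S-1275 in RpS29 (dm6 chr3R:9778398-9778537, plus strand): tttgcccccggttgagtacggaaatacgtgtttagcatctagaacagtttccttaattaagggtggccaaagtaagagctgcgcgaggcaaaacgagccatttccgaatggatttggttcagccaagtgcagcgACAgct
snoRNA:Psi28S-1232 in RpL17 (dm6 chrX:6743675-6743815, minus strand): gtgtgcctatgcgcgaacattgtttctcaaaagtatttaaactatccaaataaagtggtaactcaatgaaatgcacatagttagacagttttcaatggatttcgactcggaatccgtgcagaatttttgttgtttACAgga

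Of these 5 snoRNAs, the 3 with C and D boxes were 80, 73 and 67 bases long and the 2 with an ACA box were 140 and 141 bases long. The same difference in length held over the annotation. The 87 snoRNAs named for a methylation site (Me, box C/D) had a median length of 80 bp. Of them 82 had CTGA in the last 20 bases, and fewer, 64, had TGATGA in the first 20. The 112 named for a pseudouridine site (Psi, box H/ACA) had a median length of 140 bp, and 109 of them had ACA in the last 8 bases. Names placed the other 70 in neither class. The Me and Psi classes include 16 genes named as small Cajal body RNAs (scaRNAs), which have the biotype snoRNA and were counted as snoRNAs throughout. Of the 247 hosted snoRNAs, 243 were intronic in at least 1 transcript of the host and 4 were exonic only. The median distance from the nearest upstream host transcription start site (TSS) was 1465 bp, with quartiles of 778 and 2764 bp.

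Peaks came as the authors' lists on the dm6 genome build. The optimal list, selected by the irreproducible discovery rate (IDR), held 3102 peaks. A relaxed list for each replicate and one for the pooled replicates held 30000 peaks each, background included by design. The signal of a peak is the authors' own and its scale differs between lists, so peaks were compared between lists by rank, rank 1 being the strongest. The middle peak of the relaxed list had a signal of 15.3 for replicate 1 against 8.54 for replicate 2, and the depth in reads is unknown. A promoter peak was a summit at most 1000 bp from 1 or more TSSs of the gene.

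Promoter peaks were found at 44 of the 92 hosts in the optimal list (47.8%, 95% Wilson interval 37.9 to 57.9%), against 18.9% of all protein-coding genes and 20.7% of protein-coding genes with an intron. Ribosomal protein hosts had the highest share, 18 of 28 (64.3%, interval 45.8 to 79.3%). Other protein-coding hosts followed with 24 of 54 (44.4%, interval 32.0 to 57.6%). Noncoding hosts had 2 of 10 (20%, interval 5.67 to 51%), beside 7.71% of noncoding RNA genes, an interval too wide to place them above or below that share. All intervals in the text cover the counting of genes only, and no test was made because the design has 1 group.

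**Figure D1:**
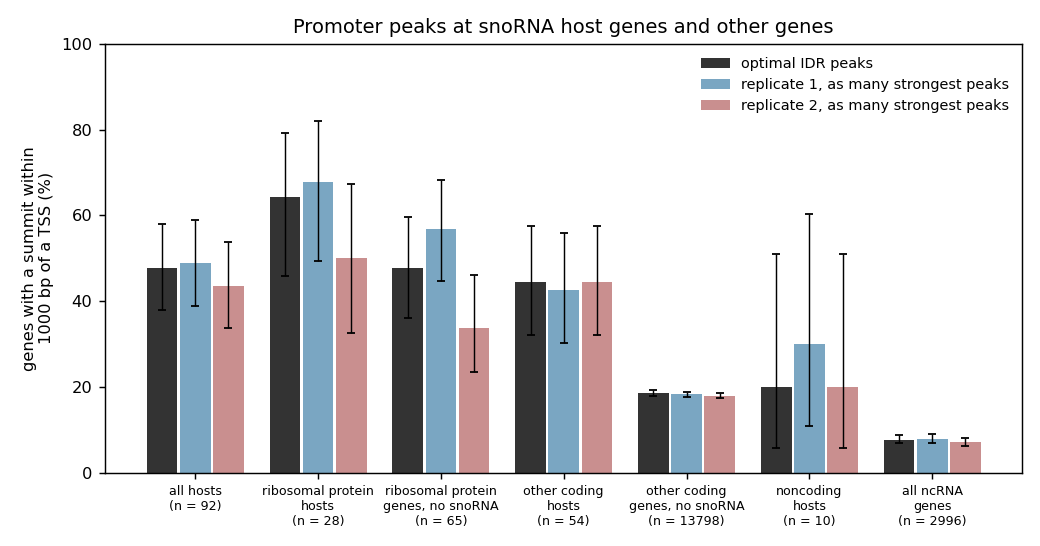
Percentage of genes (y axis) with a summit within 1000 bp of a TSS, for host classes and other genes (x axis), with 95% Wilson intervals as error bars. Black bars show the optimal IDR list and coloured bars the 3102 strongest peaks of each replicate. Ribosomal protein hosts reach 64.3% in the optimal list, against 18.5% of protein-coding genes that are neither hosts nor ribosomal protein genes.

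Hosting a snoRNA did not separate ribosomal protein genes beyond these intervals. Of the 65 ribosomal protein genes without a snoRNA, 31 had a promoter peak (47.7%, interval 36.0 to 59.6%), which overlaps the interval of the 28 hosts. The share depended on the replicate in both sets. Among the 3102 strongest peaks of replicate 1, 19 ribosomal protein hosts and 37 of the others had one, and in replicate 2 these counts were 14 and 22. Other protein-coding hosts moved less in total, with 23 in replicate 1 and 24 in replicate 2.

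Other protein-coding hosts were long, with a median of 5.51 kb against 2.17 kb for all protein-coding genes. Among genes with 1 TSS, 10 of 26 such hosts had a peak (38.5%, interval 22.4 to 57.5%), against 14.5% of protein-coding genes with 1 TSS. From the strongest peaks of replicate 2 this was 6 of 26 (23.1%, interval 11 to 42.1%), against 14%, a share inside that interval. Among genes with 2 or more TSSs, 14 of 28 had one (50%, interval 32.6 to 67.4%), against 31.1%. Here the strongest peaks of replicate 2 gave a higher count, 18 of 28 (64.3%, interval 45.8 to 79.3%), against 29.8%. Hosts were longer within both classes too, with medians of 4.3 against 1.76 kb for 1 TSS and 6.55 against 4.89 kb for 2 or more, and the part of gene length in these shares was not tested.

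The relaxed lists came close to saturation at hosts. A summit lay at 86 of 92 host promoters in the pooled list (93.5%), against 62.9% of protein-coding genes. In replicate 1 it was 88 (95.7%, against 62.8%) and in replicate 2 it was 78 (84.8%, against 58.5%). Over all hosts together, ranks were also higher up the lists than for protein-coding genes. The median rank of the strongest host promoter summit was 2992 in replicate 1 and 2983.5 in replicate 2, whereas over protein-coding genes with a summit it was 6202 and 7046. For noncoding hosts it was 5579.5 and 7066.5, against 10290.5 and 12147 over noncoding RNA genes. Other protein-coding hosts with 1 TSS had 4842 and 5110, against 7236 and 8647 for protein-coding genes with 1 TSS. With 2 or more TSSs these were 3155.5 and 2067, against 4646 and 4772. No summit in any of the 4 lists lay at Aladin, a nuclear pore gene, lncRNA:CR31647 or lncRNA:CR42491.

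Agreement of the replicates at hosts was near that at other genes. Summits in both replicates lay within 100 bp of the optimal summit at 39 of the 44 hosts, and at 91.7% of the protein-coding genes with a peak. At 28 hosts (63.6%) both replicates placed that summit among their 3102 strongest, against 68.6% of protein-coding genes with a peak. Counting these 28, replicate 1 did so at 41 hosts and replicate 2 at 31. The median rank at the optimal summit was 948 in replicate 1 and 1370.5 in replicate 2 for hosts. For all protein-coding genes with a peak it was 1353 and 1268, so hosts stood higher than other such genes in replicate 1 and not in replicate 2.

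**Figure D2:**
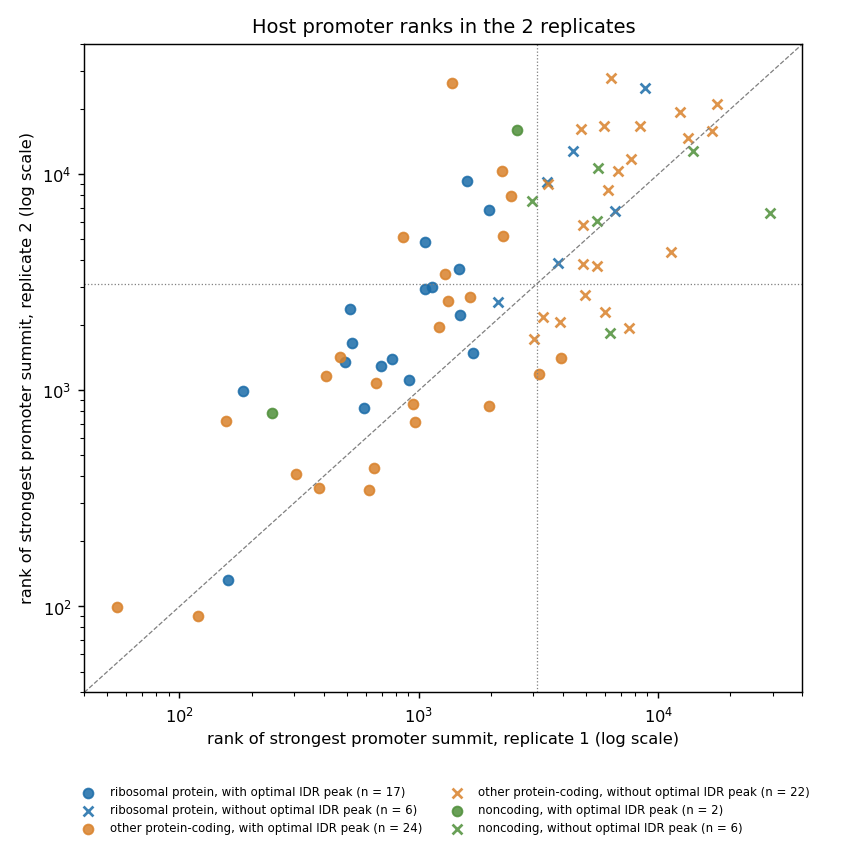
Rank of the strongest promoter summit in replicate 1 (x axis) and replicate 2 (y axis), both on log scales with 1 as the strongest, for the 77 hosts with a promoter summit in both relaxed lists. Circles have an optimal IDR peak and crosses do not, colours give the host class, dotted lines mark rank 3102 and the dashed line equal ranks. Stt3A, Msp300 and RpS20 lie at the strong end in both replicates, and most ribosomal protein hosts lie above the line of equal ranks.

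The strongest host peaks were not at one kind of gene. Stt3A, which encodes a catalytic subunit of oligosaccharyltransferase and holds 3 snoRNAs, had the peak of optimal rank 65. It ranked 55 in replicate 1 (signal 314) and 99 in replicate 2 (signal 109), with the summit 407 bp upstream of its TSS and also near the start of bves. Msp300, a giant nesprin-family protein of muscle nuclei, had rank 107, with ranks of 119 and 90 in replicates 1 and 2 and a summit 343 bp upstream of a TSS. RpS20, for a protein of the small ribosomal subunit, had rank 141, with ranks of 160 and 132. In all 3 both replicates placed the peak within their first 160.

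Below these, replicate 1 often gave the stronger rank. CG1142 (rank 212) had ranks of 157 and 722 in replicates 1 and 2, and RpL14 (rank 302), for a protein of the large subunit, had 185 and 992. The chromatin-remodelling gene tou (rank 328) had 307 and 408, and lola, a BTB zinc finger factor of axon guidance (rank 341), had 382 and 353. Both of these were thus placed alike by the replicates. CG3902 (rank 481), whose summit lies near the start of RpL26, had 616 and 345, and CG12316 (rank 512) had 411 and 1159. hts, for an adducin-like protein (rank 592), had 648 and 435, and Dys, for dystrophin (rank 608), had 467 and 1432. The poly(A)-binding protein gene pAbp (rank 742) had 661 and 1075. The order of the replicates therefore differed from host to host.

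To show the DNA under the strongest peaks, the 101 bases centred on the optimal summit are given in the direction of the host for 5 of these genes. Capitals mark any E-box (CANNTG), TATCGATA (the site of the DNA replication-related element factor DREF) or GGTCACAC, all searched on both strands.
Stt3A summit (dm6 chrX:21054294-21054394, minus strand): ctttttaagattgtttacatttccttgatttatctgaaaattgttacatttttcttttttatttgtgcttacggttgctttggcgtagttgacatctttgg
Msp300 summit (dm6 chr2L:5108119-5108219, plus strand): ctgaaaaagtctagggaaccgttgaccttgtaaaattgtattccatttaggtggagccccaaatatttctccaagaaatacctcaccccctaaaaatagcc
RpS20 summit (dm6 chr3R:20821948-20822048, plus strand): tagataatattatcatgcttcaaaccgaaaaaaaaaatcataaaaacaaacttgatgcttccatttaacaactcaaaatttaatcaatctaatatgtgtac
CG1142 summit (dm6 chr3R:7473924-7474024, minus strand): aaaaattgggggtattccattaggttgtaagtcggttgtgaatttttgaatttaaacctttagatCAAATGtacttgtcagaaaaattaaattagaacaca
RpL14 summit (dm6 chr3L:8600929-8601029, plus strand): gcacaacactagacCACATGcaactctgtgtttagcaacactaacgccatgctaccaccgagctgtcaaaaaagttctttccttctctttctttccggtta

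An E-box stood in the windows of CG1142 and RpL14, and none of the 3 motifs stood in those of Stt3A, Msp300 and RpS20. Over all 44 hosts with a peak, 18 such windows held an E-box (40.9%), against 38.0% of the windows at all optimal summits. TATCGATA stood in 3 host windows (6.82%, against 2.64%) and GGTCACAC in 2 (4.55%, against 0.999%). A match is a description of the letters and does not show that a factor sits there.

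Ribosomal protein hosts had their summits close to the start site. All 18 with a peak had the strongest summit within 200 bp of a TSS, with a median distance of 50.5 bp, and 16 of the 18 summits lay upstream. The RpS29 summit was 10 bp upstream of its TSS, with ranks of 589 in replicate 1 and 832 in replicate 2. The RpL30 summit was 4 bp downstream, with ranks of 516 and 2387. The RpL28 summit was 48 bp upstream, with ranks of 694 and 1289, and the RpS5a summit was 65 bp upstream, with 1061 and 2948. Each of these ranked higher in replicate 1. Ribosomal protein genes without a snoRNA had a like position, with a median distance of 61 bp.

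Other ribosomal protein hosts with a peak included RpL22, RpL11, RpS16, RpS3A, RpL17, RpL13A, RpS12, RpL4, RpS4, sta (which encodes a small subunit protein) and RpS7, with optimal ranks from 709 (RpL22) to 2627 (RpS7). The 10 without an optimal peak included RpL10Ab, RpL15, RpL27A, RpL3, RpL36A, RpL5, RpL7A, RpS6 and RpS9. All 10 had a summit in the pooled relaxed list, with ranks from 3387 (RpS6) to 16566 (RpL7A). RpL27A missed the optimal list with ranks of 2134 and 2560 in the replicates and 3612 in the pooled list, its strongest summits being 38 bp downstream of a TSS in replicate 1 and 417 bp upstream in replicate 2.

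**Figure D3:**
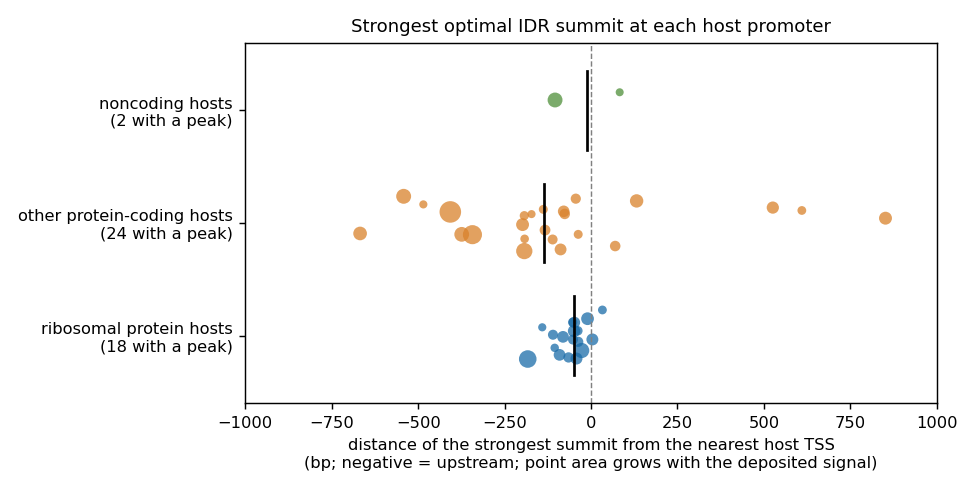
Distance of the strongest optimal IDR summit from the nearest host TSS (x axis, bp, negative upstream) for the 44 hosts with a promoter peak, by host class (y axis, points spread vertically for visibility). Point area grows with the authors' signal and black bars are medians. Summits of ribosomal protein hosts lie within 200 bp of the TSS, whereas those of other protein-coding hosts reach 668 bp upstream (CG3902) and 852 bp downstream (hts).

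Other protein-coding hosts had a wider spread, with a median distance of 192.5 bp and 15 of 24 summits within 200 bp. Over all 44 hosts the median distance was 104.5 bp, against 156 bp for protein-coding genes with a peak. The summit was upstream in 36 of the 44 (81.8%), against 84.4%. Many summits could belong to a neighbour, because 29 of the 44 (65.9%) also lay within 1000 bp of the TSS of another gene, a share near the 68.1% of all protein-coding genes with a peak. The RpL14 summit was shared with Nelf-E, which encodes a subunit of the negative elongation factor, that of RpL28 with the translation initiation factor gene eIF1 and that of RpL17 with lncRNA:CR44895. Host and neighbour cannot be told apart there.

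Promoter sequences of ribosomal protein hosts are printed from 150 bp before to 50 bp after the most 5′ TSS, because most summits of this class fall inside that window. Capitals mark TATCGATA on either strand and, for RpL14, CTTT at the TSS, the core of the polypyrimidine (TCT) initiator known from ribosomal protein genes.
RpL14 promoter (dm6 chr3L:8600856-8601055, plus strand): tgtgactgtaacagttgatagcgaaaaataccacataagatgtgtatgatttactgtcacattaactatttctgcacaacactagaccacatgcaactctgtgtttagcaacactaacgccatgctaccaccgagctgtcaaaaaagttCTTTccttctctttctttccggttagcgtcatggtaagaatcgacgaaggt
RpS29 promoter (dm6 chr3R:9777892-9778091, plus strand): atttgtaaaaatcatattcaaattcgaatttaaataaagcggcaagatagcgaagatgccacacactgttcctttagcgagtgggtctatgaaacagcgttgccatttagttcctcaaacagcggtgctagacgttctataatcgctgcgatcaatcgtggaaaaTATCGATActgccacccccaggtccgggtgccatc
RpL28 promoter (dm6 chr3L:3222911-3223110, minus strand): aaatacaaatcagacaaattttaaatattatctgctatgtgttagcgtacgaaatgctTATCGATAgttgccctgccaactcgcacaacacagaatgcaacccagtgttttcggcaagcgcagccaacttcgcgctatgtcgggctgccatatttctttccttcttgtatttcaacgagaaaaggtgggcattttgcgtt
RpS12 promoter (dm6 chr3L:13023202-13023401, plus strand): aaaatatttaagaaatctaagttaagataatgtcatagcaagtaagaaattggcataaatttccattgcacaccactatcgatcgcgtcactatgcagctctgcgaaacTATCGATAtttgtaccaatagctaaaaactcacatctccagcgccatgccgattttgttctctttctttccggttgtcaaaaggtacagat
RpS7 promoter (dm6 chr3R:30208971-30209170, minus strand): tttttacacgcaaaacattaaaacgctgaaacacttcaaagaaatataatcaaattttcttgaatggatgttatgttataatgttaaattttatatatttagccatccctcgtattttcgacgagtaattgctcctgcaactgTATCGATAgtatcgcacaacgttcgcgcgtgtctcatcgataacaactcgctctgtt

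TATCGATA lies before the TSS in the RpL28 and RpS12 sequences, has its last base at the TSS in that of RpS7 and lies after the TSS in that of RpS29. In windows from 250 bp before to 50 bp after the most 5′ TSS, 18 of 92 hosts held TATCGATA (19.6%), against 9.36% of protein-coding promoters. It stood in 8 of 28 ribosomal protein hosts (28.6%) and 20 of 65 ribosomal protein genes without a snoRNA (30.8%). It stood in 10 of 54 other protein-coding hosts (18.5%) and in none of the 10 noncoding hosts. The share was 18.2% in the 44 hosts with a peak and 20.8% in the 48 without one, and 14.5% in all protein-coding promoters with a peak.

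GGTCACAC stood in 11 hosts (12.0%, against 7.70% of protein-coding promoters), of which 7 were among the 44 with a peak (15.9%, against 11.3% of protein-coding promoters with a peak) and 4 among the other 48. CTTT at the TSS, beginning at positions -2 to +3, stood in 6 hosts (6.52%, against 2.20%). These were RpL14, RpS16, RpS6, drn, Uhg4 and Uhg5, of which RpS6 had no optimal peak. By class it stood in 3 of 28 ribosomal protein hosts (10.7%) and 4 of 65 ribosomal protein genes without a snoRNA (6.15%). A CTTT further from the most 5′ TSS was not counted, so these shares do not measure how many of the genes have the initiator. E-boxes, the family site of tx, stood in 60 host promoters (65.2%, interval 55.1 to 74.2%), a lower share than the 77.2% of protein-coding promoters. In hosts with a peak the share was 70.5%, and 78.4% of protein-coding promoters with a peak had one.

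The number of snoRNAs in a host had no simple relation to its peak. Hosts of 1 snoRNA had a promoter peak in 23 of 55 cases (41.8%), hosts of 2 or 3 in 11 of 17 (64.7%, interval 41.3 to 82.7%) and hosts of 4 or more in 10 of 20 (50%, interval 29.9 to 70.1%). All 3 intervals overlap. Counted by snoRNA, 128 of the 247 (51.8%) lay in a host with a peak. Among snoRNAs with Me in the name this was 39 of 82 (47.6%, interval 37.1 to 58.2%). Among those with Psi it was 64 of 107 (59.8%, interval 50.3 to 68.6%). They lay in 41 and 33 hosts respectively, and the unclassed snoRNAs are in neither count. These intervals count snoRNAs of 1 host separately although a peak belongs to the host, so they are too narrow. By host the name classes were close, with 20 of 41 and 17 of 33 having a peak.

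Among the richest hosts, Arpc2, a subunit gene of the actin-nucleating Arp2/3 complex, held 17 snoRNAs, all of the Psi class, and had no optimal peak. Its strongest promoter summit ranked 3874 in replicate 1 and 2067 in replicate 2. dom, for the Domino ATPase of chromatin remodelling, held 15 and had a peak of rank 2316 at 610 bp downstream of its TSS, with ranks of 2241 and 5188. RpS5a held 14 and ranked 1375. kra, a translation regulator with 8, ranked 2478, with ranks of 3909 and 1409. RpS7, with 7, ranked 2627, with ranks of 1953 and 6796. The peaks of dom, kra and RpS7 thus lay outside the 1551 strongest of the optimal list.

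Hrb98DE, an hnRNP gene with 7 snoRNAs, had ranks of 3017 and 1718 in the replicates and 4787 in the pooled list, with no optimal peak. The replicate summits lay at different TSSs of the gene, 22 bp upstream of the inner TSS in replicate 1 and 122 bp upstream of the most 5′ TSS in replicate 2. Nop60B, itself the pseudouridine synthase gene, held 7 and had ranks of 11263 and 4380. These too were different summits, 985 bp downstream in replicate 1 and 347 bp upstream in replicate 2. The other protein-coding hosts of 4 or more were lola, RpS16, RpL28 and RpL17 with a peak, and RpL3, Sf3b3 (a splicing factor) and CG10576 without one. RpL3 and Sf3b3 had no promoter summit in replicate 2. Just inside and just outside the optimal list among hosts lay Uhg5 (rank 3039) and skd, a Mediator subunit gene (pooled rank 3122).

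**Figure D4:**
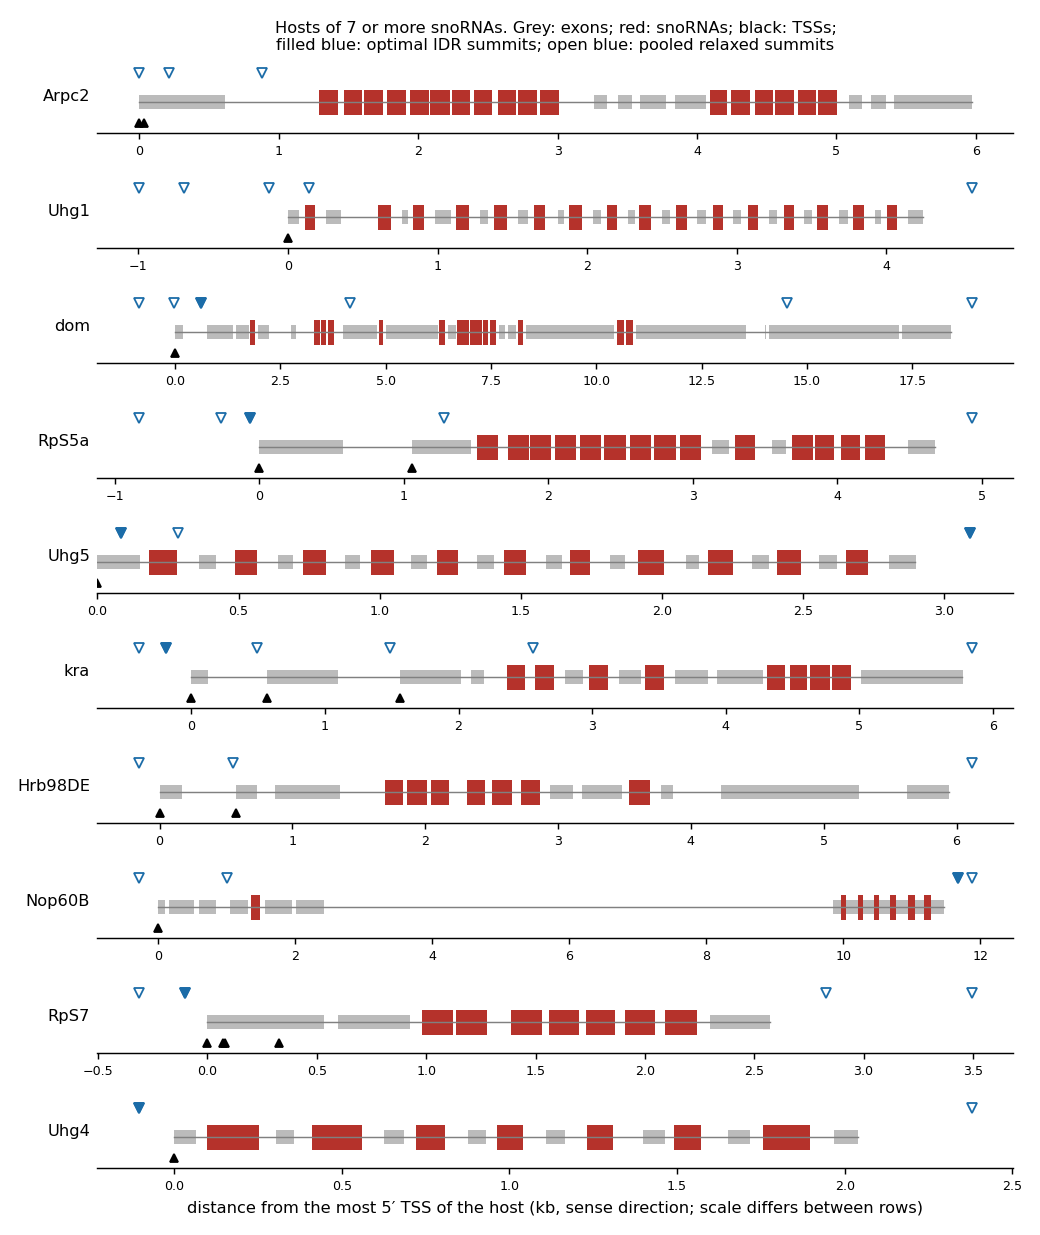
Maps of the 10 hosts of 7 or more snoRNAs, with distance from the most 5′ TSS in kb on the x axis of each row (scale differs between rows) and no y scale. Grey boxes are exons of any transcript, red boxes snoRNAs, black triangles TSSs, and filled and open blue triangles optimal and pooled relaxed summits. Filled summits lie near the start of dom, RpS5a, Uhg5, kra, RpS7 and Uhg4 and near the end of Uhg5 and Nop60B, and no filled summit lies over a snoRNA.

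Noncoding hosts differed among themselves. Uhg4, with 7 snoRNAs, had an optimal peak of rank 334, at 104 bp upstream of the TSS and shared with Boot, and ranked 243 in replicate 1 and 785 in replicate 2. Uhg5, with 11, had a peak of rank 3039, at 83 bp downstream and shared with CG12863. It ranked 2566 in replicate 1 and only 15955 in replicate 2. The strong peak of Uhg4 was thus seen in both replicates and that of Uhg5 rested mostly on replicate 1. Uhg1, the richest with 16, ranked 5589 and 10691, and Uhg2 ranked 5570 and 6088. These ranks are of different summits in replicates 1 and 2, 995 and 95 bp upstream at Uhg1 and 53 and 600 bp upstream at Uhg2. Uhg3 ranked 2967 and 7541, and Uhg8 ranked 6261 and 1838. Uhg7 ranked 13976 and 12726, also for different summits, 113 and 651 bp upstream. lncRNA:CR45184, with 5 snoRNAs, ranked 29399 and 6592. Together with the 2 hosts that had no summit, these 8 had no optimal peak. Not all of them stand apart from other hosts. lncRNA:CR42491 lies inside RpL22, which had an optimal peak of rank 709, and lncRNA:CR45184 lies inside Sf3b3, which had none.

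The snoRNA genes themselves seldom had a summit nearby. In the optimal list 15 of 269 (5.58%, interval 3.41 to 9.0%) lay within 500 bp of a summit, where 2.22% of the bases of the arms lay. The share was 4.14% for transfer RNA genes and 3.08% for microRNA genes. The interval counts clustered snoRNAs separately although some share a summit, so it is too narrow. The share of bases is for single positions, whereas any base of a snoRNA could be near a summit, so that background is slightly low. With the 3102 strongest peaks of replicate 2 alone the count was 8 (2.97%), and with those of replicate 1 alone it was 19 (7.06%). In the relaxed lists it was 81 in the pooled list (30.1%, against 19.2% of bases), 95 in replicate 1 (35.3%, against 18.7%) and 61 in replicate 2 (22.7%, against 20.5%). The share in replicate 2 was near its background.

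Most of these snoRNAs were near the promoter of their host. Of the 15, 8 were near a summit at a TSS of their own host: the 5 printed above, snoRNA:Psi28S-2949 in Uhg4, and snoRNA:Me18S-C1366 and snoRNA:Me28S-C3227a in Uhg5. The 15 snoRNAs shared 13 distinct summits, and no summit lay inside a snoRNA. Only 33 of the 247 hosted snoRNAs began within 500 bp downstream of a host TSS and 61 lay in a first intron.

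In 4 further cases, of which 3 are described, the summit lay near a hosted snoRNA away from the host's TSS. The summit near snoRNA:Or-CD4 (rank 2243, with 2342 and 4384 in the replicates) lay 3090 bp from the TSS of Uhg5, past the end of that gene. That near snoRNA:Or-CD9b in Nop60B (rank 2710, with 2080 in replicate 1 and none in replicate 2) lay 148 bp from the TSS of ocm, and was thus at the promoter of a neighbouring gene. The summit at snoRNA:Me18S-C1968 was different, being 3 bp from the snoRNA and 4111 bp from the TSS of its host Swim, which encodes a secreted protein that binds Wingless. It had rank 2804, with ranks of 3078 and 4513 in replicates 1 and 2.

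Summits also lay near 3 snoRNAs that had no host. snoRNA:Or-ACA6 and snoRNA:Or-CD13 shared the summit of rank 699 at 495 and 433 bp, which ranked 768 in replicate 1 and 816 in replicate 2 and was 3349 bp from the nearest TSS, that of CG2269. snoRNA:185 began 10 bp downstream of the summit of rank 1376, which ranked 1358 and 1514. That summit was 13086 bp from the nearest TSS of a protein-coding or noncoding RNA gene. Starts of snoRNA genes were not counted in either distance. Both summits were placed at like ranks by the replicates. Within host genes as a whole, 34 optimal summits fell in gene bodies and 15 of them away from the host's TSSs, in 7 hosts. Of those 15, 1 was within 500 bp of a snoRNA of that host, the one in Swim.

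Genes for the proteins that assemble with snoRNAs were counted by the same rule. Of 18 such genes 7 had a promoter peak (38.9%, interval 20.3 to 61.4%), against 18.9% of all protein-coding genes, a share the interval lies above. In the box C/D core these were Fib and Nop56. Fib, the methyltransferase Fibrillarin, had rank 1435, with 1287 and 3452 in replicates 1 and 2, and its summit was shared with CG3085. Nop56 had rank 1484, with 1974 and 1582, and its summit lay 711 bp upstream and also near mats. The core genes nop5 and hoip had none. In the box H/ACA core NHP2 had one (rank 2606, with 1827 and 9046), while Nop60B, Gar1 (listed as CG4038) and Nop10 (CG7637) had none. The C/D core thus had 2 of 4 genes with a peak and the H/ACA core 1 of 4.

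Of the 10 assembly and Cajal body genes, 4 had a peak. Pih1D1, a subunit of the R2TP chaperone complex, had the strongest (rank 221, with 212 and 240 in the replicates), 238 bp upstream of its TSS and shared with MRP. The ATPase gene rept of the same complex followed (rank 1560, with 1102 and 5610), its summit shared with mRpL21. The other ATPase gene, pont (rank 2403), ranked 1807 in replicate 1, with the optimal summit 204 bp upstream and shared with Sirt6. In replicate 2 the strongest pont summit ranked 6131 and lay 900 bp upstream, so it was a different summit. The nucleolar chaperone gene Nopp140 had a peak shared with CG7148 (rank 1937, with 2331 and 1808). Among the 7 snoRNP genes with a peak, only the NHP2 summit had no other gene's TSS within 1000 bp. CG10341, CG10055, Nufip, spag, coil and WDR79 had none. WDR79, for a Cajal body protein that binds scaRNAs, had no summit in any list. From the strongest peaks of replicate 2 the count was 4 in place of 7 (22.2%, against 18.1% of protein-coding genes), near the background, and from those of replicate 1 it was 9 (50%, against 18.7%). It was also 4 when each summit was given only to the gene with the nearest TSS (22.2%, against 16.2%).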

How the data were processed

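tx-GFP ChIP-seq of 2 biological replicates was analysed from peak lists on dm6. The authors deposited for each peak a signal value and a summit offset, made from each replicate and from both pooled with 1 control library for both, per the text files beside them. Neither an aligner nor a peak caller is named in the sources used here, the signal's scale is not stated, and the depth is unknown. Lists on dm3 were not used. Fragments were 200 to 800 bp, per the labels.

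From these files, summits were set against the Ensembl release 115 annotation (BDGP6.54, on the Release 6 sequence). Where several genes contained a snoRNA, which happened for 11, the host was one with the snoRNA in an intron, then the shortest. TSSs were those of transcripts of the gene's own biotype. Hosts were split into ribosomal protein, other protein-coding and noncoding genes, and snoRNAs by Me or Psi in the symbol. All 18 listed snoRNP genes matched. Ranks order peaks by signal within a list. Single-replicate counts used the 3102 strongest peaks. Motifs were searched on both strands, CTTT on the sense strand. Shares have 95% Wilson intervals (scipy 1.17.1, pandas 2.3.3, numpy 2.4.6, Python 3.11.15), and no test was run, since 1 group gives no comparison of samples. The distance search was tested on simulated positions. The members and lists were chosen with earlier results of these data known. Genes named are all noncoding and ribosomal protein hosts, hosts of 4 or more snoRNAs, the 20 hosts with the strongest peak, the snoRNP genes and the snoRNAs with a summit nearby. A few others named were chosen after their values were seen, and a few that the rule names are not reported here. Alternatives changed distances, peak sets, the TSSs used and the assignment of summits and hosts.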

Additional observations from a re-analysis of the deposited data

How the results depend on the processing

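The count of 44 hosts with a promoter peak stayed within 1.5 times under each of the 9 alternatives tried, from 31 with the 1551 strongest peaks to 50 with a TSS distance of 2000 bp, and was 40 to 45 with either replicate left out. The counts for ribosomal protein hosts and for other protein-coding hosts kept within that range too. Noncoding hosts with a peak rose from 2 to 5 at 2000 bp and were 1 with the 1551 strongest peaks. The snoRNP count of 7 was 3 with the 1551 strongest peaks, 4 when a summit went to the nearest TSS, and 4 to 9 with either replicate left out. snoRNAs near a summit, 15 at 500 bp, numbered 4 at 250 bp, 44 at 1000 bp, 9 with the 1551 strongest peaks, 23 by peak interval and 8 to 19 with either replicate left out. In the shorter summit windows, which hold fewer bases by construction, TATCGATA stood at 3 of the 44 hosts, GGTCACAC at 2 and E-boxes at 18, against 8, 7 and 31 in promoters. The cause of the other moves was not tested. No paired analysis was possible because there is 1 group. Other protein-coding hosts with 1 TSS and a peak numbered 10, and 6 with replicate 1 left out. Those with 2 or more TSSs numbered 14, and 18 with replicate 1 left out. Depth is unknown, and the relaxed lists end at 30000 peaks, with lowest signals of 12.9 in the pooled list, 9.31 in replicate 1 and 6.13 in replicate 2, so weaker summits are not seen.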
